A study of Mus musculus with 16 samples.

Results

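The genes described here are 10 receptor genes through which blood progenitors sense growth factors, inflammatory cytokines and the marrow niche: Csf2ra, Csf2rb, Csf2rb2, Il3ra, Il6ra, Il6st, Il1r1, Cxcr4, Ifngr1 and Tnfrsf1a. They were picked by symbol among the 45706 Ensembl gene IDs of a mouse count table, and each symbol matched 1 ID. All 10 passed the low-count filter in both model fits, and their counts ranged from 367 to 144466 per library. The study asked how a blood system haploinsufficient for GATA2, a transcription factor of blood stem and progenitor cells, copes when small numbers of sorted LSK cells are transplanted into lethally irradiated wild-type hosts. LSK cells are lineage-negative marrow cells that carry Sca-1 and Kit, the fraction that holds the blood stem cells.

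RNA-seq was done on 16 libraries in 6 groups. The LSK libraries were labelled Day0 (2 WT, 3 Gata2) and Day2 (3 WT, 2 Gata2), and the Week2 libraries (3 WT, 3 Gata2) were labelled CD45.2 BM cells, BM being bone marrow and CD45.2 a leucocyte marker allele by which donor and host cells of a transplant are commonly told apart. The title word "Gata2" is taken here to mean the haploinsufficient state that the series' design text names; the labels give no allele, strain, age or pooling of the mice, and no treatment for the interval from Day0 to Day2. They do not tie each library to an animal of its own either, and p-values here speak only of library-to-library spread, part of which may be technical. The Gata2 transcript did not separate the groups downwards. It stood at 388 ± 82.2 CPM (SD, n = 2) in Day0 WT and 680 ± 71.0 CPM (n = 3) in Day0 Gata2 libraries, and at 271 ± 17.6 CPM (n = 3) in Day2 WT and 614 ± 174 CPM (n = 2) in Day2 Gata2 libraries. These genotype differences did not pass the test (log2 fold changes 0.81, SE 0.20, adjusted p = 0.341, and 1.18, SE 0.19, adjusted p = 0.207; edgeR). The position of the mutation relative to the counted exons is not known, so the groups are called by their labels.

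A haematopoietin receptor usually joins a chain that binds the ligand to a shared chain that signals. Csf2ra and Il3ra encode the alpha chains that bind GM-CSF and IL-3, and Csf2rb encodes the common beta chain that both of them, and the IL-5 receptor, signal through. Csf2rb2 is a mouse gene for an additional beta chain that works with the IL-3 alpha chain. Il6ra encodes the IL-6 binding chain, and Il6st encodes gp130, the signalling chain of the whole IL-6 family. The other 4 receptors stand outside these pairs: Il1r1 binds IL-1, Ifngr1 is the ligand-binding chain of the interferon-gamma receptor, Tnfrsf1a is the TNF receptor with a death domain, and Cxcr4 holds stem and progenitor cells in the marrow along the chemokine CXCL12.

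The libraries differed in ways that touch these genes. Total counts ran from 19618830 to 68305582 in LSK libraries and from 176933583 to 320717267 at Week2. Day0 WT replicate 1, the shallowest, correlated with replicate 2 of its group at r = 0.876 across genes, against at least 0.985 in the other LSK pairs. Day0 libraries held 0.131% to 0.362% of their counts in TEC genes (unverified transcript models) and Day2 libraries 0.0314% to 0.0702%, without overlap, so time cannot be told apart from these library measures. The female-specific transcript Xist was lower at Day2 without overlap (edgeR, log2 -13.04, adjusted p = 0.0256 in WT and -9.69, adjusted p = 0.129 in Gata2 libraries). The male-specific Ddx3y was higher without overlap (log2 2.38 and 0.83, adjusted p = 0.282 and 0.788). The sex of the animals may thus differ between the days. At Week2 Xist differed by 5.82 on the log2 scale (SE 1.70) between genotypes, with overlap. The library kit, one of a pair named in the protocol, is not assigned to libraries. The summed LSK markers set the LSK libraries apart from Week2, and they also differed between the days. Kit stood at 534 ± 87.1 CPM (n = 2) in Day0 WT and 591 ± 56.9 CPM (n = 3) in Day2 WT. Ly6a, which encodes Sca-1, stood at 59.3 ± 4.13 and 27.6 ± 4.55 CPM. The summed level of 8 LSK markers was 1870 to 2310 CPM in Day0, 1280 to 1500 CPM in Day2 and 64.4 to 170 CPM in Week2 libraries. From Day0 to Day2, 4 of the 8 fell at an adjusted p under 0.05 (edgeR) in WT and 3 in Gata2 libraries, and 0 rose. Among all genes, 17.9% fell in WT and 4.82% in Gata2 libraries, and 11.9% and 4.48% rose. At Week2, 10 neutrophil markers summed to 18900 to 95400 CPM and 8 B cell markers to 6420 to 14700 CPM. In bulk RNA, fewer cells of a type and less RNA per cell cannot be told apart.

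All positions are on mm10, and all 10 genes are annotated as protein-coding. The beta chain genes are neighbours on opposite strands, Csf2rb at chr15:78325752-78353847 on the plus strand and Csf2rb2 at chr15:78282507-78305721 on the minus strand. The alpha chain genes are apart from them, Csf2ra at chr19:61223957-61228429 (minus) and Il3ra at chr14:14346275-14356011 (plus). Il6ra spans chr3:89864059-89913196 (minus) and Il6st chr13:112464070-112510086 (plus). Il1r1 spans chr1:40225080-40317257 (plus) and Cxcr4 chr1:128588199-128592293 (minus), on the same chromosome. Ifngr1 lies at chr10:19591949-19610229 (plus) and Tnfrsf1a at chr6:125349362-125362484 (plus).

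The beta chain genes are near copies, which bears on how reads were divided between them. Over 2628 aligned coding bases, Csf2rb (2688 coding bases) and Csf2rb2 (2634) were 95.2% identical, with 125 differing bases. The longest stretch without a difference was 242 bases, in exon 14 of both genes (Csf2rb chr15:78348577-78348818, plus; Csf2rb2 chr15:78284630-78284871, minus), and a read that lies wholly inside it cannot be assigned to one of the genes:
Csf2rb and Csf2rb2, shared run: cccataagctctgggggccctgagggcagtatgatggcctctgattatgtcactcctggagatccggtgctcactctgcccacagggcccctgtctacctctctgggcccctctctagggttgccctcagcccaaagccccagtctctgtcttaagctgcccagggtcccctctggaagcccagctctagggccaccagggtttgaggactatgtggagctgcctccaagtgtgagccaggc

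The 90 aligned coding bases that differed most lie in exon 4 (Csf2rb chr15:78338897-78338986, plus; Csf2rb2 chr15:78294345-78294434, minus). They hold 16 of the differing bases, given in capitals, by which reads of the genes can be told apart:
Csf2rb: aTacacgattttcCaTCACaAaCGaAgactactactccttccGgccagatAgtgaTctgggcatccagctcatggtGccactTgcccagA
Csf2rb2: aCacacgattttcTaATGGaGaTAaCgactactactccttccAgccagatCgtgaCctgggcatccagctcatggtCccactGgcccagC

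Of all windows of 50 bases in the Csf2rb transcript, 18.9% also occurred in Csf2rb2, and 19.0% the other way. With windows of 100 bases the share was 7.2%. The sources used here do not say how reads of equal fit were counted. Each value of Csf2rb2, the lower of the pair, may carry an error from its neighbour, and each result of the pair was also computed on their summed counts. Other overlaps were small: the antisense gene Gm42809 had 748 counts over all libraries against 100154 for Il6ra, and the same-strand TEC gene Gm38070 had 1767 against 24119 for Il1r1. The antisense gene Gm48860, which overlaps Il3ra by 990 bases, is not among the counted gene IDs.

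Levels are given in CPM, counts divided by the TMM-scaled library size, and per kilobase of exon where genes are compared with each other. LSK and Week2 libraries were scaled separately, so an order that crosses them is a description without a test. Per exon length, Csf2ra and Ifngr1 were the most abundant of the 10 transcripts at Day0. Csf2ra had 42.5% and 25.3% of their summed level in the Day0 WT libraries, and Ifngr1 had 23.2% and 27.2%, so that Csf2ra led in replicate 1, the library that stood apart, and Ifngr1 in replicate 2. In Day0 Gata2 libraries the mean shares were 21.5% for Csf2ra and 28.8% for Ifngr1. The Csf2ra share was 12.9% in Day2 WT and 13.5% in Day2 Gata2 libraries, and 38.3% and 33.2% in the Week2 groups. Csf2rb had 4.52% of the summed level in Day0 WT and 15% in Day2 WT libraries. Ifngr1 and Tnfrsf1a, the sensors of interferon-gamma and TNF, held the highest shares at Day2, with 29.5% and 25.3% in WT libraries.

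**Figure D1:**
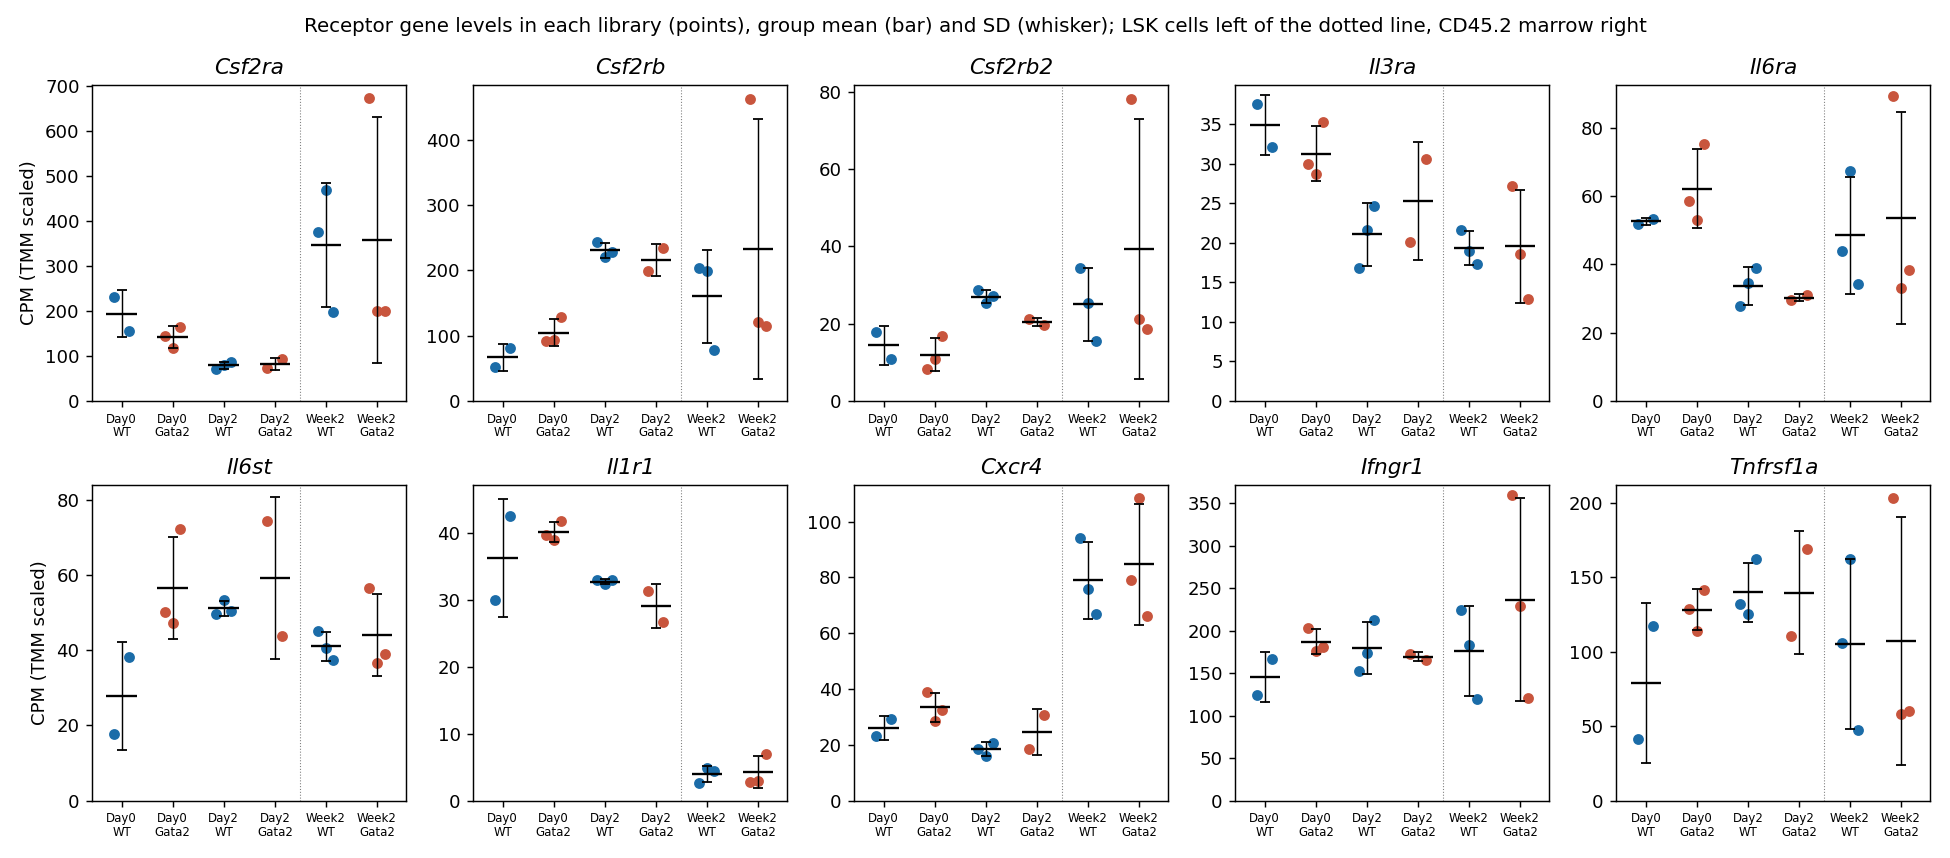
Each panel plots 1 receptor gene, with the level in CPM on the y axis and the 6 groups on the x axis; points are libraries and horizontal bars group means. Csf2rb is higher in every Day2 than in every Day0 library, Csf2ra is lower, and at Week2 the replicate 1 library labelled Gata2 lies at the top for 8 of the 10 genes, all but Il1r1 and Cxcr4.

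The order of the 6 groups differed from gene to gene. Csf2ra ran from 357 ± 273 CPM (n = 3) in Week2 Gata2 down to 79.0 ± 8.0 CPM (n = 3) in Day2 WT, and the only neighbours in this order whose libraries did not overlap were Day0 Gata2 and Day2 Gata2. Csf2rb ran from 233 ± 199 CPM (n = 3) in Week2 Gata2 to 67.1 ± 20.6 CPM (n = 2) in Day0 WT, and Csf2rb2 from 39.3 ± 33.7 to 12.0 ± 4.29 CPM (n = 3), the latter in Day0 Gata2. Il3ra was highest in Day0 WT, at 34.9 ± 3.80 CPM (n = 2), and lowest in Week2 WT, at 19.3 ± 2.16 CPM (n = 3), with overlap between all neighbours. For Il6ra and Il6st, too, all neighbouring groups overlapped, with means of 30.3 to 62.2 CPM and 27.9 to 59.1 CPM.

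Il1r1 and Cxcr4 separated the LSK fraction from the Week2 marrow in opposite directions. Il1r1 counted 26.7 to 42.4 CPM in the 10 LSK libraries and 2.66 to 7.02 CPM in the 6 Week2 libraries. Cxcr4 counted 15.9 to 38.9 CPM in LSK libraries and 66.3 to 109 CPM at Week2. No LSK library overlapped a Week2 library for either gene. These are different cell fractions: the B cell marker sum, for example, was 94.1 to 465 CPM in LSK libraries, and its part in the levels of Cxcr4, which B cells also express, was not tested. Ifngr1 lay at 120 to 360 CPM at Week2 and at 125 to 213 CPM in LSK libraries, and the groups that neighbour in its order overlapped. Tnfrsf1a had its lowest value, 41.3 CPM, in Day0 WT replicate 1, and its highest, 203 CPM, in Week2 Gata2 replicate 1.

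Between Day0 and Day2 in WT LSK cells, the transcript of the common beta chain rose, and those of the GM-CSF alpha chain and the IL-6 binding chain fell. Csf2rb counted 52.5 and 81.6 CPM in the Day0 WT libraries and 243, 220 and 229 CPM in the Day2 WT libraries. The groups were far apart, and the rise was 3.44-fold (log2 1.78, SE 0.23, adjusted p = 0.000948; edgeR). Csf2ra moved the other way, from 230 and 156 CPM to 70.5, 80.2 and 86.4 CPM, so that every Day2 library lay below every Day0 library (log2 -1.29, SE 0.21, adjusted p = 0.00285). Il6ra fell from 51.9 and 53.3 CPM to 27.7, 34.6 and 38.9 CPM (log2 -0.64, SE 0.20, adjusted p = 0.0402). These 3 of 10 receptors passed the test, where 29.9% of all 19162 genes tested did, 11.9% higher and 17.9% lower; the members' share is that of the background. With upper quartile scaling the median of all genes moved from -0.11 to -0.26 on the log2 scale and the calls from 2286 higher and 3434 lower to 1619 and 4014. The Csf2rb, Csf2ra and Il6ra differences kept their direction under every scaling tried. Il6ra was near the threshold: its adjusted p was 0.0513 without Day0 WT replicate 1 and 0.0809 and 0.091 without Day2 WT replicates 1 and 2. Csf2ra did not pass by limma voom (log2 -1.12, adjusted p = 0.106).

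The other 7 receptors did not pass the test over time in WT cells. Csf2rb2 stood at 17.9 and 10.8 CPM at Day0 and at 28.6, 25.3 and 27.1 CPM at Day2, above both Day0 libraries (log2 0.91, SE 0.34, adjusted p = 0.066). Il3ra stood at 37.6 and 32.2 CPM and at 16.8, 21.7 and 24.7 CPM, below both (log2 -0.73, SE 0.25, adjusted p = 0.0512). With Csf2ra, both ligand-binding chains of this family thus lay lower at Day2 and both beta chains higher, of which Csf2ra and Csf2rb passed the test. In all, 8 of 10 receptors had groups that did not overlap, against 51.5% of all genes. The means of Il6st (log2 0.87, SE 0.35) and Tnfrsf1a (log2 0.82, SE 0.37) were higher at Day2. Day0 WT replicate 1, the library that stood apart, read 17.8 CPM for Il6st and 41.3 CPM for Tnfrsf1a, and replicate 2 read 38.1 and 117 CPM. Without replicate 1 these log2 differences were 0.39 and 0.23, and without replicate 2 they were 1.54 (adjusted p = 0.00323) and 1.77 (adjusted p = 0.000927). Cxcr4 was 23.02 and 29.2 CPM at Day0 and 18.5, 15.9 and 20.8 CPM at Day2 (log2 -0.51, SE 0.26, adjusted p = 0.17). Il1r1 and Ifngr1 overlapped between the days (log2 -0.15 and 0.30, SE 0.19 and 0.18).

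In the libraries labelled Gata2, Csf2rb rose and Il6ra fell over the same interval. Csf2rb counted 91.2, 93.0 and 128 CPM at Day0 and 199 and 234 CPM at Day2, a 2.07-fold rise without overlap (log2 1.05, SE 0.21, adjusted p = 0.0142; edgeR). Il6ra counted 58.5, 52.9 and 75.3 CPM at Day0 and 29.6 and 31.0 CPM at Day2 (log2 -1.04, SE 0.21, adjusted p = 0.016). Here 2 of 10 receptors passed, 1 in each direction, where 9.3% of all genes did (4.48% higher, 4.82% lower), and 6 of 10 had groups that did not overlap, where 60.3% of all genes did. Csf2ra went from 145, 117 and 164 CPM to 72.9 and 92.1 CPM, without overlap and just short of the threshold (log2 -0.78, SE 0.22, adjusted p = 0.0519). Csf2rb2 stood at 8.32, 10.9 and 16.7 CPM and at 21.2 and 19.7 CPM (log2 0.77, SE 0.32, adjusted p = 0.169). The Il1r1 libraries also lay apart, at 38.9 to 41.7 CPM and then at 31.3 and 26.7 CPM (log2 -0.47, SE 0.19, adjusted p = 0.165), as did those of Ifngr1, at 176 to 204 CPM and then at 173 and 166 CPM (log2 -0.14, SE 0.18, adjusted p = 0.686). Il3ra, Il6st, Cxcr4 and Tnfrsf1a overlapped between the days. With the LSK and Week2 libraries in 1 fit, neither call was made (adjusted p = 0.247 for Csf2rb and 0.147 for Il6ra). Leaving out either Day2 Gata2 library ended both (adjusted p = 0.12 and 0.11 for Csf2rb, 0.108 and 0.0791 for Il6ra), as did leaving out Day0 Gata2 replicate 1 or 2 for Csf2rb (0.0572 and 0.0627) and replicate 3 for Il6ra (0.0669).

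**Figure D2:**
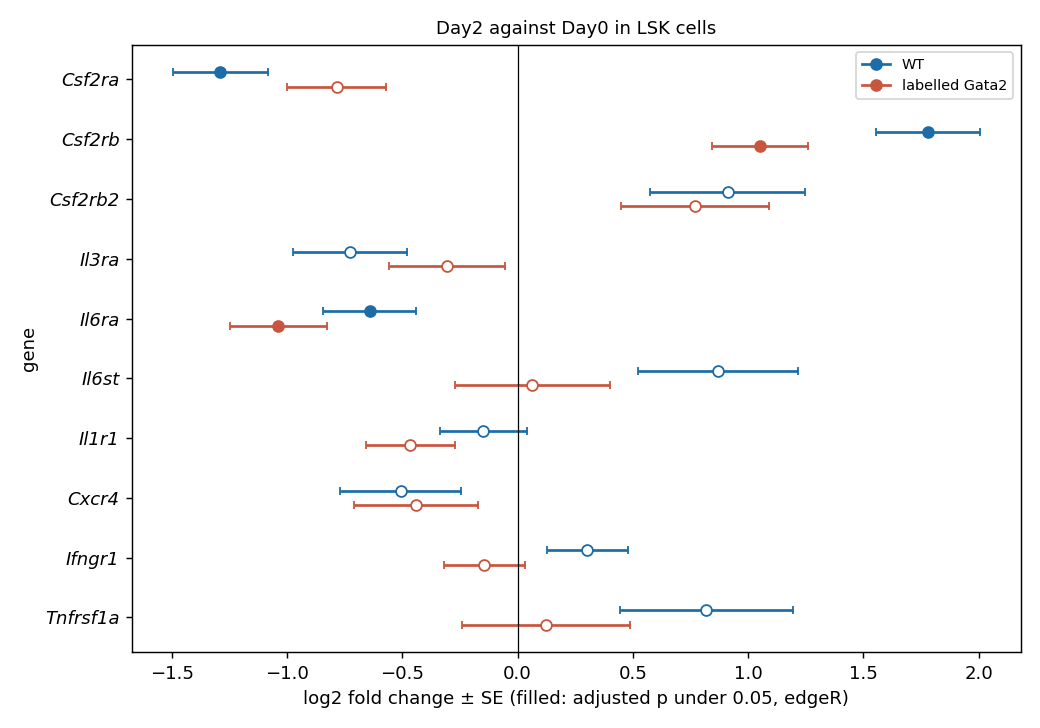
Log2 fold change of Day2 against Day0 (x axis) with its standard error for the 10 receptor genes (y axis), in WT and in Gata2-labelled LSK libraries; filled points passed an adjusted p of 0.05. Csf2rb passes to the right and Il6ra to the left in both genotypes, and Csf2ra passes in WT, at -1.29 against -0.78.

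These calls moved with the library measures that separate the days. With each library's TEC share as a covariate, the WT differences were 1.06 for Csf2rb (adjusted p = 0.1), -0.53 for Csf2ra (adjusted p = 0.373) and -0.74 for Il6ra (adjusted p = 0.267), and none passed; in Gata2 libraries Csf2rb (0.80, adjusted p = 0.0179) and Il6ra (-1.07, adjusted p = 0.00902) still did. Marker transcripts of other blood cells differed between the days as well, where 11.9% of all genes rose and 17.9% fell in WT. In WT libraries 5 of 7 megakaryocyte and 6 of 10 neutrophil markers rose, and 6 of 8 B cell, 5 of 8 erythroid, 4 of 8 T and NK cell, 3 of 7 mast cell and basophil and 3 of 8 dendritic cell markers fell, with 1 marker called the other way in each of the neutrophil, mast cell and dendritic cell lists; monocyte and macrophage markers moved both ways, 1 up and 1 down of 10. Over both genotypes, the megakaryocyte markers summed to 364 to 571 CPM in Day0 and 1850 to 2540 CPM in Day2 LSK libraries, and the neutrophil markers to 1940 to 6580 and 5280 to 7900 CPM. The B cell sum was 319 to 465 and 94.1 to 151 CPM, with Ms4a1, Pax5 and Ebf1 at 0 in Day2 WT, and the erythroid sum 102 to 208 and 22.9 to 43.5 CPM. The sums were 152 to 282 and 106 to 151 CPM for T and NK cells, 328 to 603 and 149 to 201 CPM for mast cells and basophils, 602 to 1620 and 1340 to 2250 CPM for monocytes and macrophages, and 571 to 720 and 155 to 217 CPM for dendritic cells, the last with Flt3 alone at 501 and 89.6 CPM in WT. Their part in the receptor differences was not tested.

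Within a library, the ratio of a signalling chain to its partner does not depend on the scaling between libraries. Per exon length, the ratio of Csf2rb to Csf2ra was 0.0901 and 0.206 in the Day0 WT libraries and 1.36, 1.08 and 1.04 in the Day2 WT libraries. In Gata2 libraries it was 0.248, 0.314 and 0.308 at Day0 and 1.07 and 1.0 at Day2. With these exon lengths, the common beta chain transcript lay below its GM-CSF partner in every Day0 library and level with it or above it in every Day2 library. The absolute ratio depends on the Csf2rb length used, here 7277 bases of all exons against 4764 in its coding transcript. At Week2 the ratio was again below 1, at 0.156 to 0.213 in WT and 0.227 to 0.272 in Gata2 libraries, and these groups did not overlap. The ratio of Il3ra to Csf2rb went from 0.968 to 1.75 in Day0 WT down to 0.170 to 0.265 in Day2 WT libraries, and from 0.674 to 0.807 down to 0.248 and 0.321 in Gata2 libraries. The ratio of Il6st, the signalling chain, to Il6ra was 0.266 to 0.746 in Day0 and 1.01 to 1.96 in Day2 libraries of either label.

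The additional beta chain was the lesser one everywhere. Per exon length, Csf2rb2 was 0.129 to 0.302 of Csf2rb in 15 libraries and 0.524 in Day0 WT replicate 1. The exon length counted for Csf2rb includes a transcript with a retained intron, so the absolute ratios depend on the length used, while their changes do not. The sum of both beta chains rose by 1.66 on the log2 scale in WT (SE 0.20, adjusted p = 0.000761) and by 1.03 in Gata2 libraries (SE 0.19, adjusted p = 0.00948; edgeR). The ratios themselves are described without a test.

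**Figure D3:**
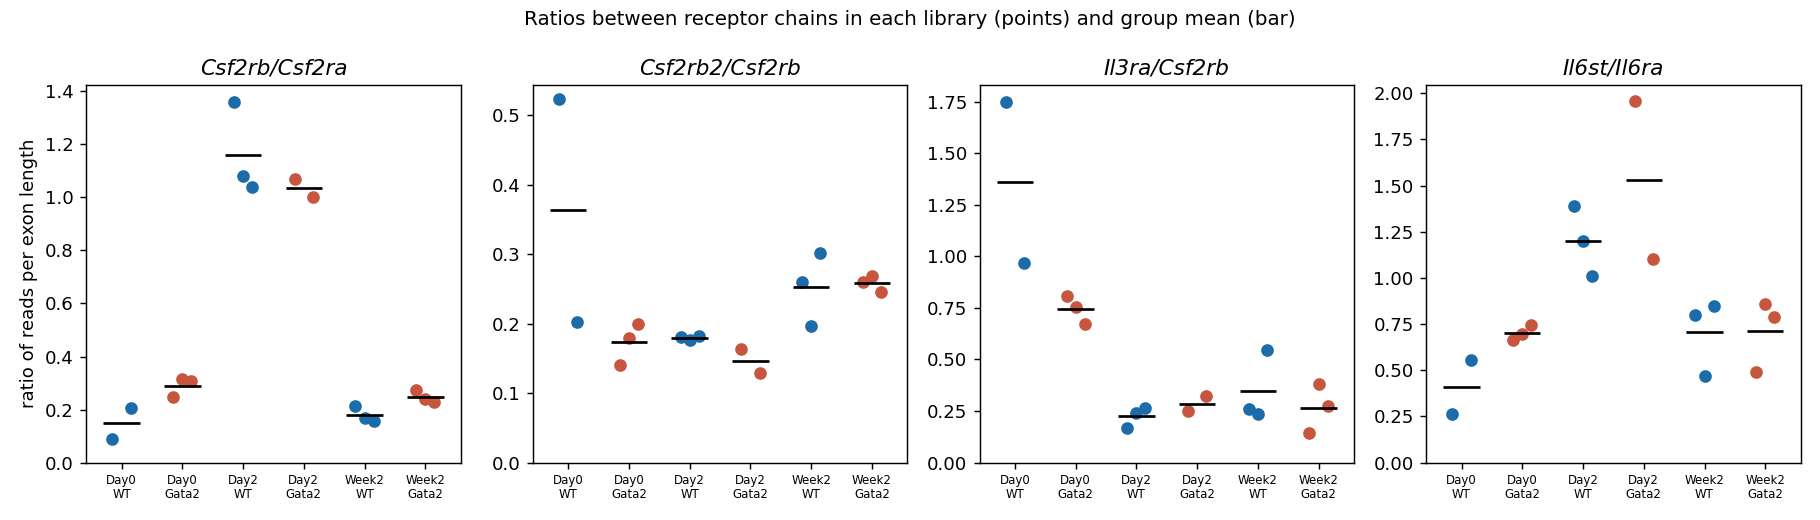
Each panel plots, per library, the ratio of the exon-length-scaled levels of a chain pair (y axis, linear scale) by group (x axis). Csf2rb over Csf2ra is 0.0901 to 0.314 in Day0, 1.0 to 1.36 in Day2 and 0.156 to 0.272 in Week2 libraries.

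Promoter sequence was read for AGATAA and TGATAA, forms of the GATA motif, because GATA2 is the study's factor. It was also read for the STAT motif TTCNNNGAA, because JAK-STAT signalling runs from most of these receptors. Other forms of the GATA motif were not searched. RefSeq promoter windows on GRCm38.p6, from 250 bases before to 50 bases after each start, were found for 9 of the 10 genes. Csf2rb had none, so its promoter was not read. The motifs AGATAA or TGATAA occurred on either strand in 18.6% of all 32851 such windows, and TTCNNNGAA, which reads the same on both strands, in 8.3%. Among the receptors, Csf2rb2 held TGATAA on the minus strand 38 bases before the start and TTCNNNGAA 15 bases before it, and Il6ra held AGATAA on the minus strand 245 bases before the start. Tnfrsf1a held TTCNNNGAA 244 bases before its start. The 250 bases before the start are given for both genes with an AGATAA or TGATAA match, with matches in capitals on the gene's strand. They are Csf2rb2 at chr15:78305722-78305971 and Il6ra at chr3:89913197-89913446, both on the minus strand:
Csf2rb2: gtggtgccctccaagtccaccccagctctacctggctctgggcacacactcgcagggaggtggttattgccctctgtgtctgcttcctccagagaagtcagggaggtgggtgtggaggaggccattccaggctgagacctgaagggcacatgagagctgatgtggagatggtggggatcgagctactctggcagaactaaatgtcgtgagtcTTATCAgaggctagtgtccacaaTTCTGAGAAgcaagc
Il6ra: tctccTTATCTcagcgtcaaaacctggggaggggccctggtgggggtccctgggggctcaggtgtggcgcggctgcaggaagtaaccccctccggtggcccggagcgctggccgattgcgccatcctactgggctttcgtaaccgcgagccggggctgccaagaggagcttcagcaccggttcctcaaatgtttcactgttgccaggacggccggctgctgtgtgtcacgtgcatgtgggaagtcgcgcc

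A match is a run of letters and no proof of binding. Il6ra passed the test over time in both genotypes and Csf2rb2 in neither.

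Around the 10 receptors, 104 further genes of 7 lists were followed over time: other receptors, ligands, signal transducers, feedback genes, and genes of receptor shedding and turnover. Of the 100 that could be tested, 13 (13%) passed the test in both genotypes, as did 2 of the 10 receptors, Csf2rb and Il6ra, and 8.02% of all genes. Of all 19162 genes tested, 11.9% rose and 17.9% fell in WT, and 4.48% rose and 4.82% fell in Gata2 libraries. Among 21 other haematopoietin and growth factor receptors tested, 2 rose and 5 fell in WT and 0 rose and 3 fell in Gata2 libraries. Their median log2 differences were 0.01 and -0.36, against -0.11 and -0.07 for all genes. Flt3, the FLT3 ligand receptor of early multipotent progenitors, fell from 501 ± 77.1 CPM (n = 2) to 89.6 ± 18.2 CPM (n = 3) in WT (log2 -2.48, adjusted p = 0.000105) and from 486 ± 23.8 CPM (n = 3) to 113 ± 17.7 CPM (n = 2) in Gata2 libraries (log2 -2.10, adjusted p = 0.00051). Csf3r, the G-CSF receptor, fell by 0.96 and 0.92 on the log2 scale, to 151 ± 16.3 and 144 ± 5.65 CPM. Lifr, a partner chain of gp130, rose in WT by a log2 difference of 2.93 (adjusted p = 0.00316), and Il4ra by 1.18 (adjusted p = 0.0326), while Il7r and Il15ra fell by 3.17 and 0.92 on the log2 scale. The Day0 WT libraries differed widely for both, with 7.11 and 39.7 CPM for Il7r and 20.1 and 46.5 CPM for Il15ra, against 1.96 to 3.46 and 16.3 to 18.3 CPM in Day2 WT libraries.

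Of 19 other receptors of the interleukin-1, interferon and TNF families, 2 rose and 3 fell in WT, where 11.9% and 17.9% of all genes did. In Gata2 libraries 0 passed, where 9.3% of all genes did. There 2 had an unadjusted p under 0.05, as had 4871 of all 19162 genes. Tnfrsf1b, the TNF receptor without a death domain, went from 91.5 ± 1.59 CPM (n = 2) to 268 ± 44.3 CPM (n = 3) in WT (log2 1.55, adjusted p = 0.00184) and from 129 ± 28.8 CPM (n = 3) to 197 ± 42.0 CPM (n = 2) in Gata2 libraries (log2 0.61, adjusted p = 0.105). Il18r1 and Il18rap, the chains of the IL-18 receptor, fell in WT by 3.11 and 1.51 on the log2 scale, and Il10rb fell by 1.35. For these, too, the Day0 WT libraries lay far from each other, as at 34.9 and 128 CPM for Il18rap and 48.9 and 135 CPM for Il10rb. Of 16 other chemokine and homing receptors, 4 rose and 1 fell in WT. In Gata2 libraries 2 rose and 0 fell, where 4.48% and 4.82% of all genes did. Ccr2, the monocyte chemokine receptor, rose in both, from 27.3 ± 9.70 to 262 ± 15.3 CPM (log2 3.27, adjusted p = 0.000629) and from 26.1 ± 10.3 to 256 ± 64.6 CPM (log2 3.29, adjusted p = 0.000591). Itgb1, the shared integrin beta chain of homing, rose from 199 ± 23.3 to 353 ± 13.1 CPM and from 224 ± 0.835 to 341 ± 57.2 CPM (log2 0.83 and 0.60). Ccr2 is also 1 of the 10 monocyte and macrophage markers, of which 5 lay above and 5 below 0 in either genotype.

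Among the ligands, 8 of 11 could be tested, and Cxcl12 and Il1a passed in both genotypes, where 8.02% of all genes did. Cxcl12, the ligand of Cxcr4 and a product of marrow stroma, had 515 to 737 counts in each Day0 library, and counts of 0, 0 and 2 in the Day2 WT and 4 and 8 in the Day2 Gata2 libraries (adjusted p = 0.000152 and 0.00195). The shares of all genes that fell and rose were 17.9% and 11.9% in WT and 4.82% and 4.48% in Gata2 libraries. Of 8 stroma and endothelium markers, Cxcl12 among them, 3 fell and 2 rose in WT (median log2 -1.30). In Gata2 libraries 1 of these markers fell and 1 rose (median -1.28). Their sum was 127 to 176 CPM in Day0 and 183 to 205 CPM in Day2 libraries, and without Pecam1, an endothelial marker that blood progenitors also express, it was 26.4 to 86.0 and 11.2 to 15.8 CPM. The part of other cells in the Cxcl12 level was not tested. Il1a, a ligand of Il1r1, had 0 and 14 counts in Day0 WT and 292 to 420 in Day2 WT libraries (adjusted p = 0.00547), and 3 to 12 and then 164 and 195 in Gata2 libraries (adjusted p = 0.00937). Il1b rose in WT (log2 2.49, adjusted p = 0.0381).

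Downstream, 3 of 20 signal transducers rose and 2 fell in WT, and 2 rose and 0 fell in Gata2 libraries. The shares of all genes that rose and fell were 11.9% and 17.9% in WT and 4.48% and 4.82% in Gata2 libraries. Myd88, the adaptor of the IL-1 receptor, rose from 42.5 ± 14.2 to 102 ± 7.21 CPM in WT (log2 1.25, adjusted p = 0.00341) and from 54.6 ± 3.67 to 105 ± 13.3 CPM in Gata2 libraries (log2 0.95, adjusted p = 0.0186). Lyn, a Src-family kinase, rose by log2 differences of 0.65 and 0.58. In WT, Jak1 rose by a log2 difference of 0.71, and Irak1 fell by 0.58 on the log2 scale. Among 6 feedback genes of JAK-STAT receptors, 3 rose in WT and 2 in Gata2 libraries. Pim2, a kinase gene induced by STAT5, rose from 42.6 ± 1.64 to 200 ± 16.7 CPM (log2 2.23, adjusted p = 0.000222) and from 31.7 ± 6.64 to 171 ± 28.2 CPM (log2 2.43, adjusted p = 0.000148). Socs2 rose by 1.66 and 2.04 on the log2 scale, and Socs3 in WT by 1.31.

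Of 10 genes of receptor shedding and turnover, 4 rose and 2 fell in WT, and 1 rose and 2 fell in Gata2 libraries. For all genes these shares were 11.9% and 17.9% in WT and 4.48% and 4.82% in Gata2 libraries. Adam17, the protease that sheds IL-6 and TNF receptors from the cell surface, rose from 64.3 ± 10.6 to 319 ± 13.6 CPM (log2 2.31, adjusted p = 0.000619) and from 95.5 ± 22.3 to 275 ± 97.6 CPM (log2 1.52, adjusted p = 0.00479). Adam10 rose in WT (log2 1.67, adjusted p = 0.00275) and stood at 0.58 in Gata2 libraries (adjusted p = 0.178). Rhbdf2, whose product carries ADAM17 to the surface, and Cbl rose in WT by log2 differences of 0.88 and 0.62. Rgs1 and Rgs2, which dampen signals of chemokine and other G protein coupled receptors, fell together. Rgs1 went from 299 ± 75.1 to 32.1 ± 0.699 CPM in WT and from 158 ± 64.8 to 26.3 ± 7.64 CPM in Gata2 libraries (log2 -3.22 and -2.59), and Rgs2 from 213 ± 19.0 to 39.8 ± 7.46 and from 168 ± 25.1 to 36.7 ± 2.45 CPM (log2 -2.42 and -2.20).

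Between genotypes at Day0, no receptor passed the test, and no gene of the 19162 tested did (0%). At an unadjusted p under 0.05 there were 2 receptors and 13.5% of all genes, and DESeq2 and limma voom called 0 receptors. Il6st counted 17.8 and 38.1 CPM in WT and 50.1, 47.3 and 72.2 CPM in Gata2 libraries, without overlap (log2 1.01, SE 0.35, adjusted p = 0.341; edgeR). Csf2rb, at 52.5 and 81.6 CPM against 91.2, 93.0 and 128 CPM, did not overlap either (log2 0.63, SE 0.22, adjusted p = 0.341). Ifngr1 was the third, at 125 and 167 CPM against 204, 176 and 181 CPM (log2 0.36, SE 0.18, adjusted p = 0.391). Such separation, always towards higher Gata2 values, was seen in 3 of 10 receptors, and in either direction in 32.6% of all genes. The other differences were 0.69 for Tnfrsf1a, 0.35 for Cxcr4, 0.24 for Il6ra, 0.15 for Il1r1, -0.16 for Il3ra, -0.26 for Csf2rb2 and -0.44 for Csf2ra, with overlapping libraries (SE 0.19 to 0.37).

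The Day0 comparison depended on which of the 2 WT libraries was kept. Leaving out replicate 2 keeps the library that stood apart as the WT group. The log2 differences were then 1.83 for Tnfrsf1a, 1.87 for Il6st, 1.18 for Csf2rb, 0.78 for Ifngr1 and 0.61 for Il1r1. Without replicate 1 these values were 0.13, 0.57, 0.35, 0.17 and -0.08. In those fits the lone library is assumed to vary like the other groups.

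At Day2, too, no receptor and no gene passed between genotypes (0%), no receptor had an unadjusted p under 0.05, against 5.58% of all genes, and DESeq2 and limma voom called 0 receptors. Csf2rb2, at 28.6, 25.3 and 27.1 CPM in WT and 21.2 and 19.7 CPM in Gata2 libraries, lay lower without overlap (log2 -0.40, SE 0.33, adjusted p = 1; edgeR). Il1r1 did the same within a narrow range, at 32.9, 32.3 and 32.9 CPM against 31.3 and 26.7 CPM (log2 -0.17, SE 0.19, adjusted p = 1). Separation was seen in 2 of 10 receptors and in 21.1% of all genes. For the remaining 8 receptors the libraries overlapped, with log2 differences from -0.15 (Il6ra) to 0.42 (Cxcr4). Csf2ra and Csf2rb, whose levels had moved most between the days in WT libraries, differed by 0.06 (SE 0.21) and -0.09 (SE 0.21) between genotypes.

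**Figure D4:**
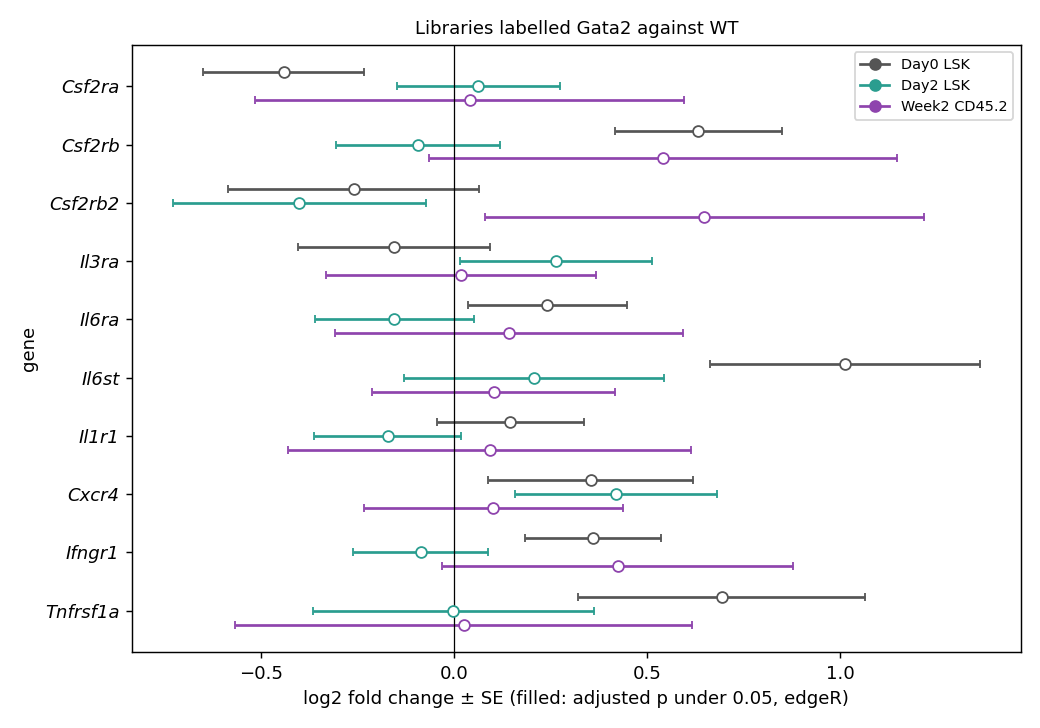
Log2 fold change of libraries labelled Gata2 against WT (x axis) with its standard error for the 10 receptor genes (y axis), at Day0, Day2 and Week2. No point is filled, since none passed an adjusted p of 0.05, and the Week2 bars are the widest, with SE of 0.31 to 0.61 against 0.17 to 0.37 in LSK libraries.

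The difference between genotypes in the Day0 to Day2 change was tested directly and passed for no receptor and no gene (0%). DESeq2 and limma voom called 0 receptors. At an unadjusted p under 0.05 there was 1 receptor, Csf2rb, whose rise was smaller in Gata2 libraries by 0.73 on the log2 scale (value -0.73, SE 0.30, adjusted p = 0.466), against 10.4% of all genes. The value was -0.80 (SE 0.48) for Il6st, -0.70 (SE 0.52) for Tnfrsf1a, -0.45 (SE 0.25) for Ifngr1 and 0.50 (SE 0.30) for Csf2ra. Csf2ra was called over time in WT and not in Gata2 libraries, and its own difference did not pass (adjusted p = 0.552). Without Day0 WT replicate 2, which leaves 1 library in that group, the value was -1.23 for Csf2rb, -1.63 for Il6st, -0.75 for Il1r1, -0.82 for Ifngr1 and -1.77 for Tnfrsf1a. These were the lowest of the 10 fits with a library left out, and the highest were -0.43, -0.35, -0.08, -0.24 and -0.12.

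In the Week2 marrow the receptors varied widely between libraries of 1 label. No receptor and no gene of 36485 tested passed (0%), no receptor had an unadjusted p under 0.05 (0.238% of all genes), and no receptor's groups lay apart (1.41% of all genes). Csf2rb counted 203, 199 and 78.2 CPM in WT and 462, 121 and 115 CPM in Gata2 libraries (log2 0.54, SE 0.61, adjusted p = 1; edgeR). Csf2ra counted 375, 468 and 197 CPM and 671, 199 and 200 CPM (log2 0.04, SE 0.56, adjusted p = 1). Ifngr1 counted 225, 184 and 120 CPM and 360, 229 and 121 CPM (log2 0.42, SE 0.46, adjusted p = 1). In each case replicate 1 of the Gata2 group was the highest of the 6 libraries, as it was for Csf2rb2 (78.2 CPM, the others 15.4 to 34.3), Il6ra (89.3 CPM, the others 33.1 to 67.4), Tnfrsf1a (203 CPM, the others 47.5 to 162), Il3ra (27.2 CPM, the others 13.0 to 21.6) and Il6st (56.5 CPM, the others 36.6 to 45.16).

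That library also had the highest myeloid marker sums of the 6. Its 10 neutrophil markers summed to 95400 CPM, against 80600, 56600 and 18900 CPM in the WT libraries and 25500 and 19000 CPM in the other Gata2 libraries. Its 10 monocyte and macrophage markers summed to 18400 CPM, against 14700, 11000 and 4700 CPM in WT and 5620 and 4510 CPM in the other Gata2 libraries. The 3 libraries with the highest myeloid sums, Gata2 replicate 1 and WT replicates 1 and 2, were also the 3 with the highest Csf2ra, Csf2rb, Csf2rb2, Il6ra and Tnfrsf1a. The part of the myeloid share in these levels was not tested. Without this library the Csf2rb2 difference was -0.34, against 0.65 with it.

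The fold changes of all 10 receptors were above 0 at Week2 under TMM scaling, with a median of 0.10, and under upper quartile scaling 4 were above and 6 below 0. The Week2 libraries also fell into 2 sets by TEC share, each with both genotypes: WT replicate 1 with Gata2 replicates 1 and 2 had 0.0541% to 0.0947%, and WT replicates 2 and 3 with Gata2 replicate 3 had 0.201% to 0.316%. Within the first set Csf2rb differed by 0.61 and Tnfrsf1a by 0.38 on the log2 scale, and within the other by -0.31 and -0.86, none of them called. By limma voom with quality weights, Cxcr4 (log2 0.54, adjusted p = 0.0465) and Ifngr1 (0.70, adjusted p = 0.0404) passed, along with 12016 genes in all, while DESeq2 called no receptor.

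Across the 7 pathway lists no gene passed between genotypes at Day0, Day2 or Week2, or for the difference of the time changes. The lowest p-values among them at Day0 belonged to Itgal, an integrin chain (log2 1.03, SE 0.24, adjusted p = 0.341), Tnfrsf21 (0.67, SE 0.20, adjusted p = 0.341) and Adam10 (0.89, SE 0.26, adjusted p = 0.341).

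Over the 10 LSK libraries, the receptors' patterns were compared with those of 10218 genes of at least 5 CPM by Pearson's r of log2(CPM + 1), given as a description. The 10 points share their libraries, their depth and the step between the days, which many genes follow. Csf2ra was most like Rasgrp2 (r = 0.994), Pou2f2 (0.986) and Slc25a28 (0.978), and Csf2rb most like Sema4d (0.993), Litaf (0.988) and Hsd17b7 (0.988). The pair ran against each other, with r = -0.915 between Csf2ra and Csf2rb. Csf2rb2 was most like Arfgap3 (0.965) and stood at 0.727 with Csf2rb. Il3ra was most like Kmt5c (0.951). Il6ra was closest to Ifi27l2a (0.972) and Isg15 (0.963), both interferon-inducible, and to Mbd3 (0.963). Il6st was closest to Mtmr4 (0.974). For the remaining receptors the closest genes were Mppe1 for Il1r1 (0.972), Epn1 for Cxcr4 (0.959), B9d2 for Ifngr1 (0.972) and Sh2b2 for Tnfrsf1a (0.991). Among themselves, Tnfrsf1a stood at 0.77 with Il6st and 0.767 with Ifngr1.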

How the data were processed

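RNA-seq was deposited by the authors as 1 table of raw read counts per Ensembl gene for all 16 libraries. The submitters' processing notes name Trimmomatic 0.38, STAR 2.5.2b and the build mm10. The counting program, its use of strand and its handling of reads that fit several genes are not given in these sources. Symbols and exon lengths came from GENCODE M21 (45143 of 45706 IDs matched). The 10 LSK libraries (4 groups) and the 6 Week2 libraries (2 groups) were fitted separately with edgeR 4.0.16 in R 4.3.3 (filterByExpr, TMM, robust quasi-likelihood test), with group as the only term, Benjamini-Hochberg adjustment over all genes tested, and calls at an adjusted p under 0.05. The scripts were tested on simulated counts with known changes in 1 group. For Day2 against Day0 in WT, 100 of 18485 genes were changed 2-fold and 100 were changed 4-fold, of which 5% and 39% were recovered. In the data 29.9% of genes were called, far more than were changed here, so these rates need not hold for that comparison. For Gata2 against WT at Week2, 1% and 4% were recovered, and 2 unchanged genes were called. A gene that did not pass may therefore still differ. Levels are CPM with TMM scaling, and per kilobase of union exon length between genes. Standard errors follow from the log2 fold change and its F value. Alternatives included DESeq2 1.42.0 and limma 3.58.1 (voom). Sequences were read with Biopython 1.88 and figures drawn with matplotlib 3.10.9.

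The receptors, pathway lists and marker lists were chosen with earlier results of these data known. The text gives all 10 receptors in every comparison, the called genes of the lists (or those of lowest p) and the genes most like each receptor; 1 called gene of the lists is not reported here. Counting error is small at these depths, so the number and spread of libraries set the precision.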

Additional observations from a re-analysis of the deposited data

How the results depend on the processing

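Each comparison was recomputed with other scalings, filters, tools, covariates and sets of libraries, and with each library left out. Of the receptor calls over time, Csf2rb in WT held in 11 of 13 alternatives and all 10 fits with a library left out (log2 1.06 to 2.15), Csf2ra in WT in 10 of 13 and all 10 (-1.53 to -0.53), Il6ra in WT in 7 of 13 and 6 of 10, Csf2rb in Gata2 libraries in 11 of 13 and 6 of 10, and Il6ra there in 11 of 13 and 7 of 10; all kept their direction. The number of receptors called changed as follows. In WT over time it was 3, and 1 by voom, 0 with the TEC share and 0 with the share of 4 repeat-rich genes as covariate, and 2 to 7 with a library left out. In Gata2 libraries over time it was 2, and 4 by DESeq2, 4 with the groups fitted alone, 4 with the TEC share, 1 with the repeat share, 0 with all 16 libraries in 1 fit, and 0 to 4 with a library left out. At Day0 and for the difference of the time changes it was 0, and 0 to 5 with a library left out. At Week2 it was 0, and 2 by voom.

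All genes called were 0 at Day0, and 1 without the filter, 417 by DESeq2 and 0 to 8655 with a library left out. At Day2 they were 0, and 22 without the filter, 1 with a filter of 5 CPM, 144 by DESeq2, 21 by voom, 11 with groups alone, 4 with all 16 libraries, 3 with sex, 17 with TEC share, 3 with repeat share and 0 to 48 with a library left out. At Week2 they were 0, and 1 by DESeq2, 12016 by voom, 2 with sex, 11 and 182 in the libraries of low and high TEC share (a split chosen after seeing the data), and 0 to 4 with a library left out. In WT over time they were 5720, and 1334 by voom, 1199 with groups alone, 2358 with TEC share, 173 with repeat share and 3191 to 12386 with a library left out. In Gata2 libraries over time they were 1782, and 3471 by DESeq2, 4088 by voom, 5676 with groups alone, 5031 with TEC share and 499 to 4863 with a library left out. For the difference of time changes they were 0, and 2 without the filter, 216 by DESeq2 and 0 to 6733 with a library left out.

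Differences larger than their standard error, or called, that changed sign were the following. With the TEC and the repeat share, in that order, Tnfrsf1a at Day0 was -0.16 and -0.052, and over time in WT Il6st was -0.42 and -0.54, Ifngr1 -0.26 and -0.31, and Tnfrsf1a -0.88 and -0.66. In the difference of time changes Tnfrsf1a was 0.36 and 0.0046, and with the TEC share Csf2ra was -0.0041, Il6st 0.0036 and Il1r1 0.074. Il3ra at Day2 was -0.064 without Day2 Gata2 replicate 2 (-0.064 to 0.64 over the libraries left out), and Csf2rb2 at Week2 was -0.34 without Week2 Gata2 replicate 1 (-0.34 to 1.16) and -0.19 in the libraries of high TEC share. The cause was not tested.

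The replicate numbers did not pair the libraries: same-numbered libraries deviated from their group means with correlations of -0.744 to 0.43. With the replicate number as a block, 2747 genes were called over time in WT, 745 in Gata2 libraries, 1 at Day2 and 12 at Week2. The block left 1 receptor called over time in Gata2 libraries, Csf2rb (log2 1.14, adjusted p = 0.0341), with Il6ra at an adjusted p of 0.0525.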
